A study of Mus musculus with 10 samples.

Results

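A set of 50 genes of the mitotic cell cycle was followed in mouse kidney lacking Ehhadh. They were chosen by gene symbol as genes known to act in mitosis, and all 50 were found among the 24062 genes of the count table. Poly(A)-selected RNA from kidneys of adult male mice was sequenced, 1 library per animal. The 4 knockout (KO) libraries and the 4 wild-type (WT) libraries came from C57BL/6N mice that differ in their Ehhadh genotype, and the labels name no treatment, no age beyond adult and no further allele. The sources used here do not give how the Ehhadh allele was made. A single kidney of the strain 129S2_SvPasCrl and a single kidney of the strain DBA_2J, both wild type for Ehhadh, were sequenced beside them.

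Cells divide by assembling cyclin-dependent kinase complexes, condensing their chromosomes, attaching them to a microtubule spindle through kinetochores, and then degrading the mitotic cyclins to leave mitosis and split. Many of these genes are transcribed mainly from late S phase to mitosis, so their RNA in a whole tissue reports mainly the cells that are cycling. The tubule epithelium of the adult kidney is largely quiescent and re-enters the cycle after injury. EHHADH is a peroxisomal enzyme of fatty acid beta-oxidation.

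Total counts ran from 41488104 to 52302788 in the KO libraries and from 19790430 to 35988299 in the WT libraries, and were 51192407 in 129S2_SvPasCrl and 57250374 in DBA_2J. Ehhadh itself was at 257.9 ± 64.0 CPM (reads scaled to a common library size; SD, n = 4) in KO and at 2470 ± 622 CPM (SD, n = 4) in WT, a fall of 3.26 on the log2 scale (edgeR quasi-likelihood test, Benjamini-Hochberg adjusted p = 1.86e-05). It was at 788 CPM in 129S2_SvPasCrl and 795 CPM in DBA_2J, between the KO libraries (176 to 327 CPM) and the WT libraries (2080 to 3400 CPM). WT replicate 4 stood apart from its group in one respect. For 21 genes it lay with both strain libraries, at least 1.5-fold away from the other 7 C57BL/6N libraries, against 0 to 11 such genes for each of those 7, and 1 of the 21 was a mitotic gene, Kif20b. Fits of KO against WT are therefore also given without that library. The strain comparisons keep it in the WT mean.

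Many of the mitotic genes were more abundant in KO kidneys. Of the 50 genes, 21 were higher in KO, 1 was lower, 26 did not pass the test and 2 (Ttk and Melk) had too few reads to be tested. Among all 15547 genes tested, 6.32% were called higher (982) and 4.68% lower (728). That balance depends on the scaling: upper quartile scaling gave 832 higher and 938 lower, with 20 and 1 of the mitotic genes, and library totals alone gave 1202 and 587, with 22 and 1. A call is an adjusted p under 0.05 in edgeR's quasi-likelihood test, with Benjamini-Hochberg adjustment over all 15547 genes. The rises ranged from 1.42-fold (Smc2) to 7.59-fold (Pbk), with a median of 2.82-fold. In a whole-tissue library, more cells in mitosis and more of each transcript per cell cannot be told apart.

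Every KO library lay above every WT library in 25 of the 50 genes, and below in 1 (Spc25). Over all tested genes, 9.85% had KO libraries wholly above and 7.91% wholly below. The 21 genes called higher were all among the 25, and the other 24 genes overlapped between the groups. Log2 fold changes were positive for 43 of the 48 tested genes and their median was 0.82, beside -0.006 for all tested genes. Both figures include scarce genes that entered the test on the reads of a single group. With a mean CPM of 1 or more the median was 0.56, beside -0.008 for all genes. The 26 genes that did not pass ran from -0.40 to 1.84, and 22 of them were positive.

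Depth differed with genotype, and 11 of the 21 calls rested on the full set of libraries. With all 8 libraries thinned to the smallest total, 16 of 43 testable mitotic genes were called higher and 1 lower (860 and 640 of 14752 over all genes). The count fell to 11 without KO replicate 1 (610 higher over all genes), to 12 without WT replicate 3 (625 over all genes) and to 12 without WT replicate 4 (801 over all genes). Cdk1, Ccnb2, Cdkn3, Pbk, Aurkb, Bub1, Nusap1, Cdc20, Ube2c and Mki67 passed in all 8 fits that left out 1 library. The animals' titles come in a form with a leading E and one without, each covering 2 KO and 2 WT kidneys. Each title also opens with a number that some animals of a group share but no KO animal shares with a WT animal. The labels do not explain that number, and what it marks cannot be told apart from genotype. All 21 genes had positive log2 fold changes within each form. With 2 against 2 libraries, however, 10 mitotic genes were called higher in the form without the E (924 over all genes) and 0 in the form with it. By adjusted p, the fit with the E called 92 genes in all higher and 51 lower. There 23 mitotic genes had an unadjusted edgeR p under 0.05 and a positive fold change. No share of all genes at that unadjusted threshold was computed to set beside them.

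**Figure D1:**
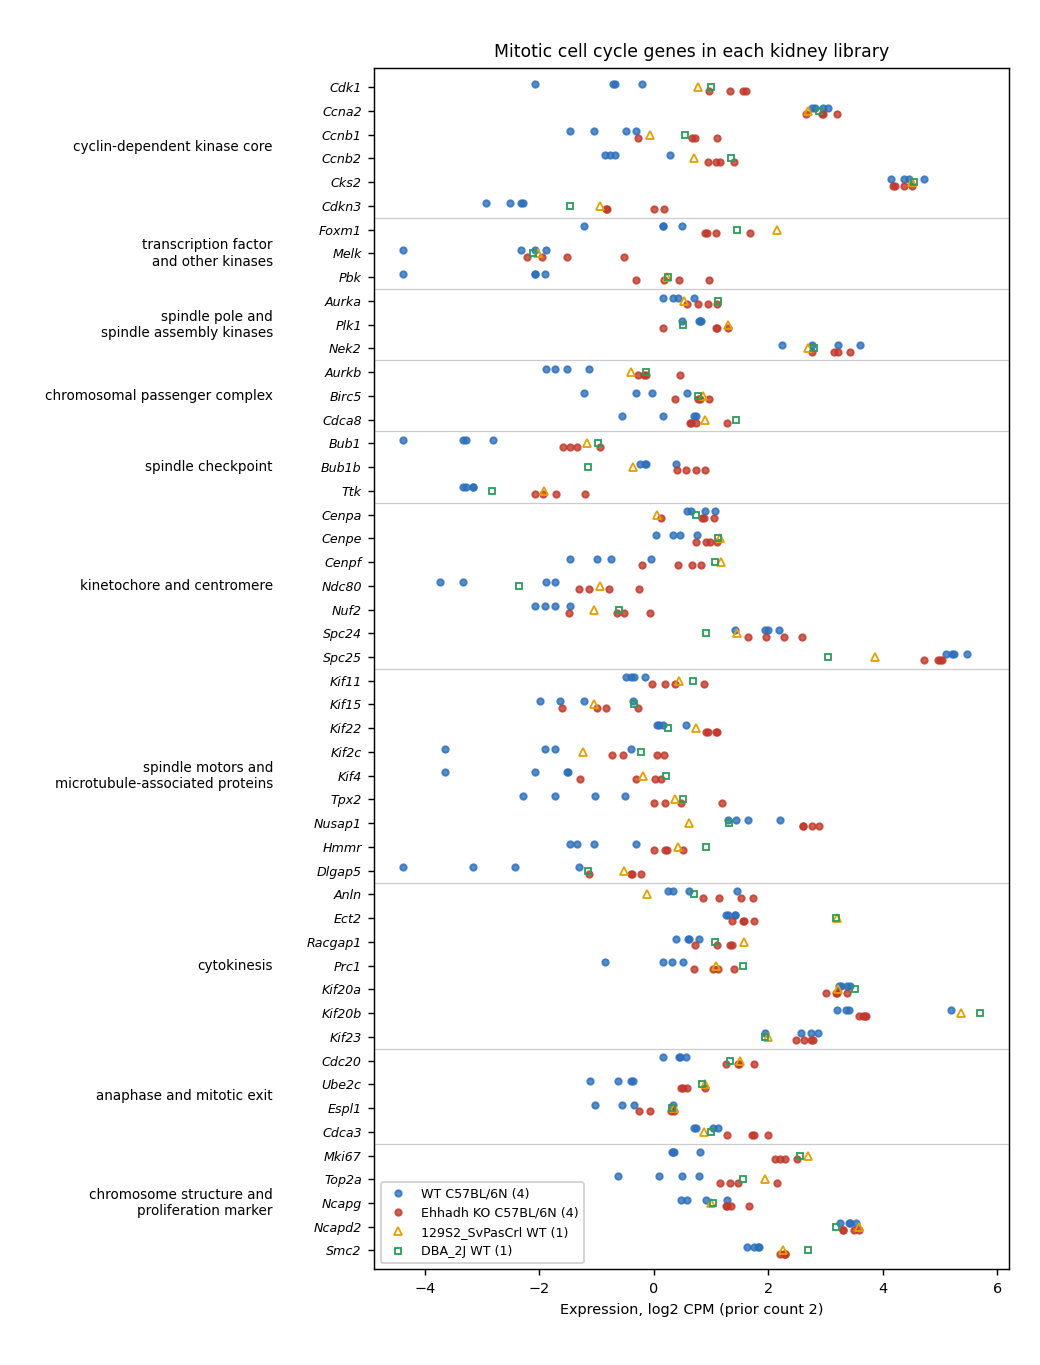
Expression of the 50 mitotic genes in each of the 10 kidney libraries, in log2 CPM with a prior count of 2, grouped by role; each point is 1 library. The KO points lie wholly to the right of the WT points for 25 genes and wholly to the left for Spc25.

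Summed over the 50 genes, the signal was 202, 188, 178 and 175 CPM in KO replicates 1 to 4 and 169, 157, 151 and 169 CPM in WT replicates 1 to 4. Much of that sum comes from a few abundant genes that did not rise. For the 38 genes outside the 12 with the highest mean CPM, the KO sums were 72.0, 59.5, 54.8 and 50.9 CPM and the WT sums 34.2, 34.4, 29.7 and 26.8 CPM. On both sums every KO library lay above every WT library. The 12 genes were picked by their level in these same libraries and most did not rise. The wider gap on the smaller sum is thus partly built in and is no separate support. KO replicate 1 was the highest KO library in 32 of the 50 genes (64.0%), against 22.3% of all tested genes. KO replicate 4 was the lowest KO library in 22 genes (44.0%, against 28.8% of all tested genes), and WT replicate 4 the lowest WT library in 20 (40.0%, against 26.5%).

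Levels between genes can be compared only per transcript length. On that scale (RPKM, which divides CPM by the exon length in kilobases) the WT means were led by Cks2 at 31.2 and Spc25 at 24.2, followed at a distance by Spc24 at 2.76, Ccna2 at 2.64, and Nek2 and Kif20a at 2.56 each. Reads in shared exon bases count for both genes. Ccna2 shares 13.4% of its bases with Exosc9 (mean 19.9 CPM) and Kif20a 28.6% with Cdc23 (mean 32.4 CPM). Part of their levels may come from these neighbours, which was not separated. Kif20b was at 2.98 with WT replicate 4 and at 1.79 without it. The lowest was Bub1 at 0.0116. Of the 12 genes with the highest mean CPM over the 8 libraries (3.08 or more), 3 were called higher and 1 lower. Of the 48 tested genes, 8 of the upper 24 by mean CPM and 13 of the lower 24 were called higher, a difference that was not tested. A scarce gene could enter the test on the reads of a single group. Bub1 did so on its KO reads (0 to 0.0949 CPM in WT, 0.286 to 0.475 CPM in KO). The count in the lower 24 is thus partly set by the filter and is no separate support.

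The promoters of these genes carry the short elements that are known from mitotic transcription. CCAAT is the binding sequence of NF-Y, and TTTGAA (with its variant TTCGAA) is the core of the cell cycle genes homology region, through which the MuvB complexes keep such genes silent in resting cells and switch them on with B-MYB and FOXM1. RefSeq promoters of the build GRCm38.p6 (300 bases, from 250 before to 50 after the start site) were available for 42 of the 50 genes. The upstream parts of 7 are printed 5′ to 3′ on the gene's strand, leaving out annotated exon sequence, with every CCAAT as well as every TTTGAA or TTCGAA on either strand in capitals (ATTGG and TTCAAA are the reverse complements). First come 5 genes that were higher in KO: Cdk1 at chr10:69352939-69353162, Ccnb2 at chr9:70421555-70421804 and Mki67 at chr7:135716380-135716629, all on the minus strand, Cdkn3 at chr14:46760291-46760540 on the plus strand, and Top2a at chr11:99024190-99024439 on the minus strand. Then, to set beside them, come the abundant genes that did not rise, Cks2 at chr13:51644982-51645231 on the plus strand and Spc25 at chr2:69206214-69206463 on the minus strand.
Cdk1: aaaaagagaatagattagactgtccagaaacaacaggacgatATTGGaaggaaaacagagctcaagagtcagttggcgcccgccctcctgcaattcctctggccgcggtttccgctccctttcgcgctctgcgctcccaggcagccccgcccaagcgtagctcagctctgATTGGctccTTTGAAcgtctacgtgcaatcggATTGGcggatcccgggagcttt
Ccnb2: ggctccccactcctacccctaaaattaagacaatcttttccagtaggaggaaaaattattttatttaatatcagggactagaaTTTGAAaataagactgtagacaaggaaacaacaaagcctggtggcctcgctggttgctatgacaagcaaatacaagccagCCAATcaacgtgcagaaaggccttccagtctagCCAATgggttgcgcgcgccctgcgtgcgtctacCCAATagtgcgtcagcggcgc
Mki67: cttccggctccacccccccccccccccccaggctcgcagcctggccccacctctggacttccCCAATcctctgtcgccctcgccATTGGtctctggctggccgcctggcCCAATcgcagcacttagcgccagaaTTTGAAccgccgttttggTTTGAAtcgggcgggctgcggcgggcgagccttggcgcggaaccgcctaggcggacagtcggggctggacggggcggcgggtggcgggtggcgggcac
Cdkn3: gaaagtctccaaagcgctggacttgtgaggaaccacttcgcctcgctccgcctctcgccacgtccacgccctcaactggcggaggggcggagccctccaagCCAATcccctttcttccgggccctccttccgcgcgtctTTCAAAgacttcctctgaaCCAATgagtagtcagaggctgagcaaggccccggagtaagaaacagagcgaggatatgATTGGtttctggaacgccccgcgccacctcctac
Top2a: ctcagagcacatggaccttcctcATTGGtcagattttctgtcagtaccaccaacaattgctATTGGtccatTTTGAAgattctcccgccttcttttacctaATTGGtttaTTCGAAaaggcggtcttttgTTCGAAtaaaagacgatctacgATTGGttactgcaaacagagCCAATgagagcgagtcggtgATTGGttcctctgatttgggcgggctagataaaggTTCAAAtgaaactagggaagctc
Cks2: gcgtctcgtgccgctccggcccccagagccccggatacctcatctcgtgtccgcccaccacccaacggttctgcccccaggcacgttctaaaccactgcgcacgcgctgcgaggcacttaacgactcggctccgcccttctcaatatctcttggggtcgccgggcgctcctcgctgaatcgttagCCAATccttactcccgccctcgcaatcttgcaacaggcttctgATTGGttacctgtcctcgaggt
Spc25: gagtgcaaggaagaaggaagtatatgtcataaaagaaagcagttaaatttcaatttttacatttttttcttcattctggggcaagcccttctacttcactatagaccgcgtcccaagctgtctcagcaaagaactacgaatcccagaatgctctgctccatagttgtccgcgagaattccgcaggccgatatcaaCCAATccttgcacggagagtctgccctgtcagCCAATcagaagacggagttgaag

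Ccnb2 holds CCAAT elements that begin at -87, -54 and -21 from the start site, and TTTGAA at -167 and 5. Cdk1 holds CCAAT at -208, -80 and -48 and TTTGAA at -71 and -15. The TTTGAA at 5 in Ccnb2 and the one at -15 in Cdk1 lie outside the printed stretches. Top2a has 6 CCAAT, 2 TTTGAA and 2 TTCGAA matches in its window. Spc25 has CCAAT at -55 and -23, and its TTTGAA lies after the start site, outside the printed stretch. Cks2 has CCAAT but no TTTGAA or TTCGAA in the window.

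Both elements were more frequent in the mitotic genes than in promoters at large. CCAAT on either strand occurred in 33 of the 42 promoters (78.6%) and in 37.4% of all 32851 promoters of the same length. The 42 are 1 promoter per gene, the one nearest the gene's start in the count annotation. The 32851 hold every promoter, any alternative promoters of a gene included, so these shares differ in unit. At least 2 CCAAT occurred in 54.8% against 11.7%. TTTGAA occurred in 33 of 42 (78.6%) against 17.9%, and TTCGAA in 3 (7.1%) against 1.6%. Much of the TTTGAA share comes from the bases after the start site: in the 250 upstream bases alone it occurred in 38.1% of the mitotic genes and 16% of all promoters. A pair of CCAAT elements whose first bases lie 31 to 34 bases apart was noticed after the sequences were seen. It occurred in 10 of the 42 (Aurka, Ccnb1, Ccnb2, Cdca3, Cdca8, Cdk1, Hmmr, Nek2, Spc25 and Ube2c; 23.8%) and in 1.2% of all promoters. Among the genes in the promoter table, CCAAT was present in 15 of the 16 that were higher in KO and in 16 of the 23 that did not pass, and TTTGAA in 13 of 16 and 18 of 23. A match is a description of these letters and not evidence of binding.

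**Figure D2:**
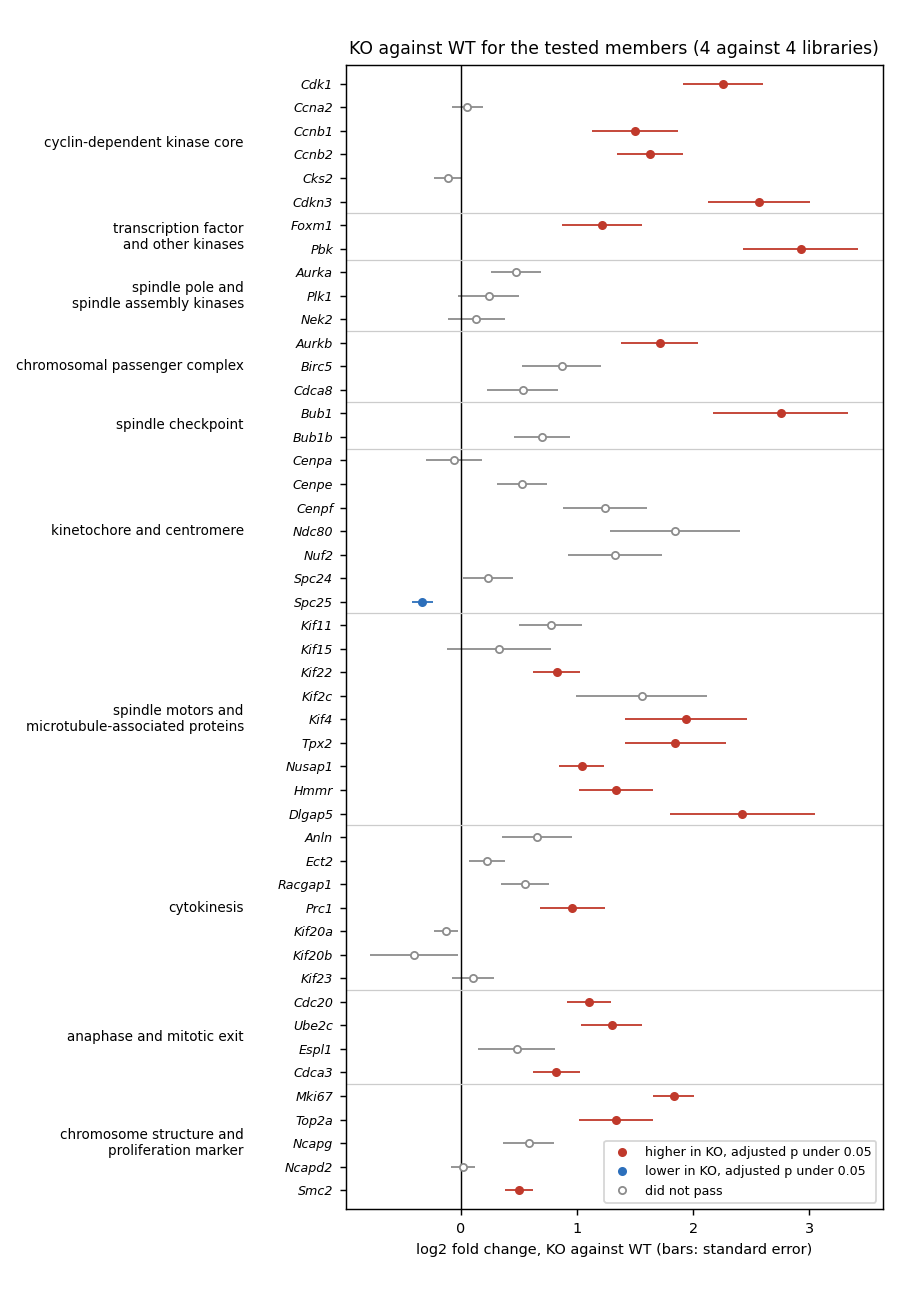
Log2 fold change of KO against WT for the 48 tested mitotic genes, by role; bars are standard errors from the edgeR fit on 4 against 4 libraries, filled red points were called higher, the filled blue point lower, and open points did not pass. The 21 red points run from 0.50 (Smc2) to 2.92 (Pbk).

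Of 6 genes of the cyclin-dependent kinase core, 4 were higher in KO and 2 did not pass. Cdk1, the kinase that drives entry into mitosis, stood at 0.559, 0.822, 0.576 and 0.190 CPM in WT replicates 1 to 4 and at 3.02, 2.91, 2.46 and 1.90 CPM in KO replicates 1 to 4. The lowest KO kidney lay above the highest WT kidney, and the fold change was 4.77 (log2 2.25 ± 0.34 SE; edgeR adjusted p = 0.00209). Ccnb2, a B-type cyclin that partners CDK1, was at 0.508, 1.17, 0.576 and 0.538 CPM in WT against 2.60, 2.19, 2.07 and 1.88 CPM in KO. The WT libraries were close together except for replicate 2, and the groups did not overlap (log2 1.63 ± 0.29 SE; edgeR adjusted p = 0.00473). Cdkn3, a phosphatase that acts on cyclin-dependent kinases, was at 0.152, 0.127, 0.0823 and 0.158 CPM in WT against 1.08, 0.953, 0.517 and 0.513 CPM in KO. Its KO libraries split into a higher pair and a lower pair, both above every WT library (log2 2.57 ± 0.44 SE; edgeR adjusted p = 0.00393).

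Ccnb1, the other mitotic B-type cyclin, was 2.82-fold higher (log2 1.5 ± 0.37 SE; edgeR adjusted p = 0.0274). Its call was lost on leaving out KO replicate 1, 2 or 3 or without WT replicate 3 or 4 (edgeR adjusted p from 0.054 to 0.0832), and it also missed in limma-voom (adjusted p = 0.0567). Ccna2, the A-type cyclin of S phase and early mitosis, was at 8.18, 6.71, 7.02 and 7.75 CPM in WT against 9.15, 7.6, 7.70 and 6.27 CPM in KO. These ranges overlap throughout (log2 0.05 ± 0.13 SE; edgeR adjusted p = 0.843), and 13.4% of the exon bases of Ccna2 are shared with Exosc9, whose reads count for both. Cks2, a small kinase-binding subunit, had a log2 fold change of -0.11 ± 0.12 SE (edgeR adjusted p = 0.604), with 17.7 to 26.3 CPM in WT against 18.1 to 22.9 CPM in KO.

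Among the transcription factor and the 2 further kinases, both tested genes rose. Pbk, a mitotic kinase, had a count of 0 in WT replicate 1, the library with the lowest total, which allows up to 0.152 CPM (3 counts, counting error only), and stood at 0.190, 0.219 and 0.190 CPM in WT replicates 2 to 4. In KO replicates 1 to 4 it was at 1.89, 1.31, 1.08 and 0.760 CPM. This was the largest fold change of the 48 tested genes (log2 2.92 ± 0.50 SE; edgeR adjusted p = 0.0038). Foxm1, the forkhead factor that activates G2 and M phase genes, was at 1.07, 1.36, 0.384 and 1.08 CPM in WT against 3.16, 2.07, 1.81 and 1.86 CPM in KO. All KO libraries were above all WT libraries, with KO replicate 1 well above the rest (log2 1.21 ± 0.34 SE; edgeR adjusted p = 0.0452). Of the 8 fits that each omit a library, only that without WT replicate 2 kept the Foxm1 call (0.0508 to 0.126 in the other 7), and 90 of its exon bases overlap 4933413G19Rik. Melk, the kinase that was not tested, ranged from 0 to 0.221 CPM in WT against 0.167 to 0.651 CPM in KO, so its groups overlap.

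Of the 3 kinases of the spindle pole and spindle assembly, 0 passed in edgeR, limma-voom or DESeq2, and 0 had an unadjusted p under 0.05 in edgeR. Aurka, which matures centrosomes, had a log2 fold change of 0.47 ± 0.22 SE (edgeR adjusted p = 0.194), and Plk1, the polo-like kinase, one of 0.24 ± 0.26 SE (edgeR adjusted p = 0.621). Nek2, a centrosome-separating kinase, stood at 12, 9.30, 6.77 and 4.68 CPM in WT against 10.7, 9.32, 8.80 and 6.78 CPM in KO. The WT spread covers the whole KO range (log2 0.13 ± 0.25 SE; edgeR adjusted p = 0.787).

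In the chromosomal passenger complex, which corrects faulty attachments, the kinase subunit rose. Aurkb was at 0.406, 0.253, 0.302 and 0.221 CPM in WT against 1.32, 0.858, 0.841 and 0.779 CPM in KO. The groups were apart, and KO replicate 1 was the highest (log2 1.71 ± 0.33 SE; edgeR adjusted p = 0.00803). Cdca8, the borealin subunit, was at 1.57, 1.08, 1.62 and 0.633 CPM in WT against 2.39, 1.5, 1.62 and 1.52 CPM in KO. Only KO replicate 1 was clear of the WT range (log2 0.53 ± 0.30 SE; edgeR adjusted p = 0.302). Birc5, the survivin subunit, had a log2 fold change of 0.87 ± 0.34 SE (edgeR adjusted p = 0.131), which passed without WT replicate 2 (edgeR adjusted p = 0.0488).

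Of the spindle checkpoint kinases, which hold anaphase until all kinetochores are attached, Bub1 rose from very few reads. It had 1, 0, 2 and 3 reads in WT replicates 1 to 4 and 16, 12, 16 and 25 reads in KO replicates 1 to 4, or 0.0508, 0, 0.0548 and 0.0949 CPM against 0.316, 0.286, 0.345 and 0.475 CPM. A count of 0 in WT replicate 2 allows up to 0.0949 CPM. The groups did not overlap (log2 2.75 ± 0.58 SE; edgeR adjusted p = 0.0126). DESeq2 gave Bub1 an unadjusted p of 0.000382 but no adjusted p, so there it is neither called nor lost. Bub1b, its relative in the checkpoint complex, was at 0.863, 1.27, 0.795 and 0.854 CPM in WT against 1.81, 1.62, 1.27 and 1.43 CPM in KO. The KO libraries were above the WT libraries but the gene did not pass (log2 0.69 ± 0.24 SE; edgeR adjusted p = 0.0908). Ttk, the checkpoint kinase that was left untested, had 1, 2, 2 and 2 reads in WT and 13, 9, 18 and 10 in KO, and its groups did not overlap.

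Of 7 kinetochore and centromere genes, 0 were higher in KO, 1 was lower and 6 did not pass. Without adjustment 4 had a p under 0.05 with a positive fold change, and DESeq2 called 3 of them higher (Cenpf, Ndc80 and Nuf2) and limma-voom 1 (Ndc80). Spc25, a subunit of the NDC80 complex that binds microtubules, was at 44.3, 37.1, 34.3 and 37.7 CPM in WT against 31.1, 32.7, 26.2 and 31.8 CPM in KO. The groups did not overlap, by a narrow margin (log2 fold change -0.33 ± 0.09 SE; edgeR adjusted p = 0.0439). Its call held in 1 of the 8 fits with 1 library left out, that without WT replicate 3, and was lost in the other 7 (edgeR adjusted p from 0.0548 to 0.104). Its partners in the same complex had fold changes of the other sign: Ndc80 1.84 ± 0.56 SE, Nuf2 1.33 ± 0.40 SE and Spc24 0.23 ± 0.22 SE on the log2 scale (edgeR adjusted p = 0.0566, 0.0575 and 0.553). Whether Spc25 differs from its partners was not tested.

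Cenpf, a large protein of the outer kinetochore, narrowly missed the threshold (log2 1.24 ± 0.36 SE; edgeR adjusted p = 0.0502), and passed under library totals alone, no filter, thinning, a term for the title form and DESeq2, and without WT replicate 2 or KO replicate 4. Cenpe, a kinetochore motor, had a log2 fold change of 0.52 ± 0.22 SE (edgeR adjusted p = 0.149). Cenpa, the centromeric histone H3 variant, was at 1.52, 2.06, 1.81 and 1.45 CPM in WT against 2.03, 1.79, 1.75 and 1.05 CPM in KO. Neither group was higher throughout (log2 -0.06 ± 0.24 SE; edgeR adjusted p = 0.913).

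Of 9 motors and microtubule-associated proteins of the spindle, 6 were higher and 3 did not pass, and of the 6 only Nusap1 passed in all 8 fits with a library omitted. Nusap1, which bundles spindle microtubules, was at 3.10, 4.59, 2.41 and 2.66 CPM in WT against 6.73, 7.36, 6.08 and 6.02 CPM in KO. Every KO library was clear of the highest WT library (log2 1.04 ± 0.19 SE; edgeR adjusted p = 0.0065), and 7.0% of its exon bases are shared with Oip5. Tpx2, a spindle assembly factor that activates Aurora A, was at 0.254, 0.443, 0.658 and 0.158 CPM in WT against 2.25, 1.10, 0.949 and 1.35 CPM in KO. The groups were apart, with KO replicate 1 the highest (log2 1.85 ± 0.43 SE; edgeR adjusted p = 0.021), and the call was lost on leaving out KO replicate 1 or WT replicate 1 (edgeR adjusted p from 0.0556 to 0.0631). Hmmr, a hyaluronan receptor that also binds the spindle, was at 0.762, 0.348, 0.439 and 0.316 CPM in WT against 1.38, 0.953, 1.12 and 1.10 CPM in KO. WT replicate 1 came closest to the KO range (log2 1.34 ± 0.32 SE; edgeR adjusted p = 0.0226). This call was lost on leaving out KO replicate 1 or WT replicate 2, 3 or 4 (edgeR adjusted p from 0.0585 to 0.0677) and in the thinned counts (edgeR adjusted p = 0.0649).

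The remaining rises in this role were less steady. Kif22, a chromosome-arm kinesin, was 1.77-fold higher (log2 0.83 ± 0.20 SE; edgeR adjusted p = 0.0246), Dlgap5, a kinetochore-fibre protein, 5.35-fold higher (log2 2.42 ± 0.62 SE; edgeR adjusted p = 0.031), and Kif4, the chromokinesin of the midzone, 3.83-fold higher (log2 1.94 ± 0.53 SE; edgeR adjusted p = 0.0388). Kif22 lost its call without any 1 of KO replicates 1 to 3 or WT replicates 2 to 4 (edgeR adjusted p from 0.0508 to 0.0761) and in the thinned counts (edgeR adjusted p = 0.0837). Dlgap5 lost it without KO replicate 1, 2 or 4 or WT replicate 2, 3 or 4 (edgeR adjusted p from 0.05 to 0.0845), and its log2 fold change reached 3.21 without WT replicate 1. Kif4 kept its call only without KO replicate 4 (0.062 to 0.0985 in the other 7 fits) and also missed in limma-voom (adjusted p = 0.0641). Kif11 and Kif2c, a plus-end motor and a microtubule depolymerase, had log2 fold changes of 0.77 ± 0.27 SE and 1.55 ± 0.57 SE and did not pass (edgeR adjusted p = 0.098 and 0.104), although Kif2c passed without WT replicate 1 (edgeR adjusted p = 0.0354). Kif15, a further plus-end motor, was at 0.203, 0.727, 0.274 and 0.380 CPM in WT against 0.513, 0.453, 0.280 and 0.779 CPM in KO. Its groups were mixed (log2 0.33 ± 0.45 SE; edgeR adjusted p = 0.701).

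Genes of cytokinesis mostly did not pass: 1 of 7 was higher. Prc1, which bundles the central spindle, was at 0.508, 1.20, 1.37 and 1.08 CPM in WT against 2.58, 1.57, 2.01 and 2.13 CPM in KO. The lowest KO library lay just above the highest WT library (log2 0.96 ± 0.28 SE; edgeR adjusted p = 0.0495). The call was lost in each of the 8 fits with 1 library left out (edgeR adjusted p from 0.0579 to 0.131), in the thinned counts (0.199), under upper quartile scaling (0.0565) and in limma-voom (0.0558). Kif23, a motor of the central spindle, was at 7.26, 6.67, 3.78 and 5.88 CPM in WT against 6.69, 6.81, 6.14 and 5.55 CPM in KO. The KO libraries lay inside the WT range (log2 0.10 ± 0.18 SE; edgeR adjusted p = 0.772).

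Anln, Racgap1 and Ect2, which build and position the contractile ring, had log2 fold changes of 0.65 ± 0.30 SE, 0.55 ± 0.21 SE and 0.22 ± 0.15 SE (edgeR adjusted p = 0.199, 0.121 and 0.395). Kif20a, the midzone kinesin MKLP2, had one of -0.13 ± 0.10 SE (edgeR adjusted p = 0.487), with 28.6% of its exon bases shared with Cdc23. Kif20b, its relative at the midbody, was at 10.2, 9.11, 10.6 and 36.4 CPM in WT against 13.1, 12.9, 12.5 and 12 CPM in KO. WT replicate 4 was far above all 7 other libraries and sets the sign: the log2 fold change was -0.40 ± 0.38 SE with it (edgeR adjusted p = 0.554) and 0.34 without it.

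Of 4 genes grouped under anaphase and mitotic exit, 3 rose. Cdca3 was placed in this group although its action on WEE1, described below, concerns entry into mitosis. Cdc20, the activator of the anaphase-promoting complex, was at 1.07, 1.42, 1.32 and 1.33 CPM in WT against 2.76, 3.34, 2.72 and 2.34 CPM in KO. The groups were far apart relative to their spread (log2 1.10 ± 0.19 SE; edgeR adjusted p = 0.00415), and 2.9% of its exon bases are shared with Elovl1, which was itself called higher at a log2 fold change of 0.28. Ube2c, the ubiquitin-conjugating enzyme of that complex, was at 0.711, 0.727, 0.411 and 0.601 CPM in WT against 1.34, 1.81, 1.38 and 1.44 CPM in KO. Again each KO library exceeded each WT library (log2 1.30 ± 0.26 SE; edgeR adjusted p = 0.0103). Cdca3, which promotes the degradation of the CDK1 inhibitor WEE1, was at 2.13, 1.99, 1.62 and 1.58 CPM in WT against 3.95, 3.24, 3.30 and 2.38 CPM in KO. KO replicate 4 came close to the WT range (log2 0.82 ± 0.20 SE; edgeR adjusted p = 0.0254), and the call was lost on leaving out KO replicate 1, 2 or 3 or WT replicate 3 or 4 (edgeR adjusted p from 0.0516 to 0.0757). Espl1, the separase that cleaves cohesin, was at 1.22, 0.443, 0.740 and 0.633 CPM in WT against 1.18, 0.786, 0.905 and 1.24 CPM in KO. WT replicate 1 was as high as the KO libraries (log2 0.48 ± 0.33 SE; edgeR adjusted p = 0.398).

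Mki67, the Ki-67 protein that coats mitotic chromosomes and serves as the usual marker of proliferation, gave the smallest p of the 50 genes. It stood at 1.22, 1.20, 1.70 and 1.23 CPM in WT against 5.60, 4.84, 4.27 and 4.54 CPM in KO. WT replicate 3 was the highest of its group and still far below every KO library, and the groups differed 3.56-fold (log2 1.83 ± 0.18 SE; edgeR adjusted p = 0.000155). Top2a, the topoisomerase that untangles sister chromatids, was at 1.02, 1.68, 0.603 and 1.36 CPM in WT against 4.38, 2.72, 2.18 and 2.47 CPM in KO. KO replicate 1 was the highest by a wide margin (log2 1.34 ± 0.32 SE; edgeR adjusted p = 0.0239), and the call was lost on leaving out KO replicate 1 or WT replicate 1 or 3 (edgeR adjusted p from 0.0562 to 0.0686).

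Of the 3 condensin genes, 1 rose. Smc2, a core condensin ATPase, was at 3.05, 3.48, 3.51 and 3.32 CPM in WT against 4.54, 4.79, 4.83 and 4.85 CPM in KO. This was the smallest of the rises, with little spread inside either group (log2 0.50 ± 0.12 SE; edgeR adjusted p = 0.0234). Its call was lost on leaving out KO replicate 2 or 3 or WT replicate 1 or 4 (edgeR adjusted p from 0.0504 to 0.0591) and in the thinned counts (edgeR adjusted p = 0.129). Ncapd2, a condensin I subunit, was at 10.6, 9.46, 10.7 and 11.5 CPM in WT against 9.78, 11.2, 9.79 and 12 CPM in KO. The groups overlapped (log2 0.02 ± 0.10 SE; edgeR adjusted p = 0.941). Ncapg, a second condensin I subunit, had a log2 fold change of 0.58 ± 0.22 SE (edgeR adjusted p = 0.113), and 20.8% of its exon bases are shared with Lcorl, which was called higher at 0.36.

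**Figure D3:**
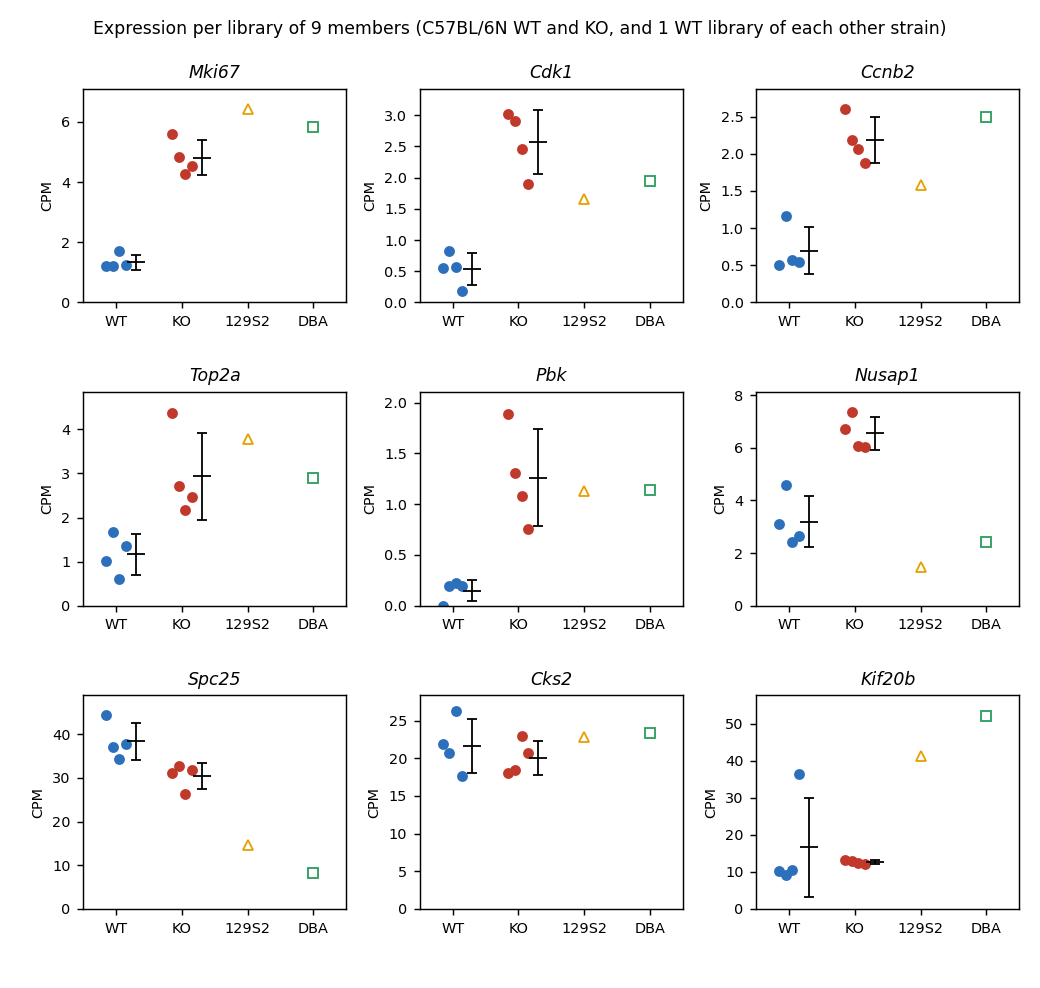
CPM per library of 9 mitotic genes in WT, KO, 129S2_SvPasCrl and DBA_2J; points are libraries and bars the mean with SD of the 4 WT or 4 KO libraries. For Mki67 both strain libraries lie above the highest KO library, for Spc25 both lie below the lowest, and for Kif20b WT replicate 4 lies near the strain libraries.

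The kidneys of the other strains, which carry wild-type Ehhadh but less Ehhadh RNA than every C57BL/6N WT library (788 and 795 CPM), had levels of many of these genes above those of C57BL/6N WT. They are compared with the same 4 WT libraries as the KO kidneys, so the comparisons share their controls, and with 1 library per strain there is no test. Taking a log2 difference of 1 or more from the WT mean (log2 CPM with a prior count of 2), 21 of the 48 tested mitotic genes were higher in 129S2_SvPasCrl, where 3.81% of all tested genes were, and 2 were lower, beside 5.97%. In DBA_2J, 24 were higher, beside 4.61%, and 2 lower, beside 8.23%. The median difference of the 48 genes was 0.76 in 129S2_SvPasCrl and 0.98 in DBA_2J, and that of all genes was 0.006 and -0.023.

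The sums over the 38 less abundant genes were 62.2 CPM in 129S2_SvPasCrl and 63.2 CPM in DBA_2J, inside the KO range of 50.9 to 72.0 CPM and above the WT range of 26.8 to 34.4 CPM. The largest rises in 129S2_SvPasCrl were those of Pbk (log2 difference 2.84), Dlgap5 (2.31) and Bub1 (2.28), and in DBA_2J those of Pbk (2.86), Bub1 (2.47) and Kif4 (2.39). Mki67 reached 6.43 CPM in 129S2_SvPasCrl (95% Poisson interval 5.75 to 7.17, covering counting error only) and 5.82 CPM in DBA_2J (5.19 to 6.50), beside 1.20 to 1.70 CPM in WT against 4.27 to 5.60 CPM in KO. Cdk1 was at 1.66 CPM in 129S2_SvPasCrl and 1.95 CPM in DBA_2J, above every WT library and close to the lowest KO library.

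Spc25 was at 14.6 CPM in 129S2_SvPasCrl and at 8.23 CPM in DBA_2J (log2 differences -1.38 and -2.21), below every WT and KO library. Nusap1, which was higher in KO, was at 1.48 CPM in 129S2_SvPasCrl (log2 difference -1.04) and 2.43 CPM in DBA_2J, against 2.41 to 4.59 CPM in WT, so it was below both C57BL/6N groups in 129S2_SvPasCrl and within the WT range in DBA_2J. Bub1b was lower in DBA_2J (0.405 CPM, log2 difference -1.11). Chosen after their values were seen, Ect2 stood at 9.10 and 9.08 CPM in the strains against 2.34 to 3.31 CPM in all C57BL/6N libraries, and Kif20b at 41.2 and 51.9 CPM. Reads that differ from the C57BL/6 reference may map differently, which was not tested.

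**Figure D4:**
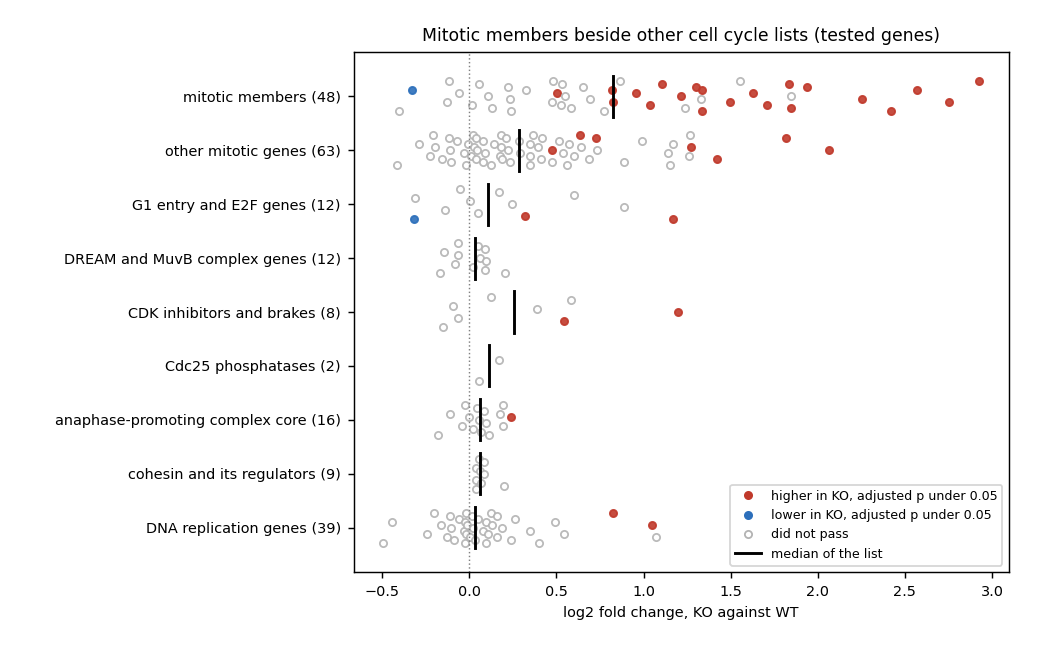
Log2 fold change of KO against WT for the mitotic genes and 8 other cell cycle lists; each point is a tested gene, numbers in brackets are genes tested, and vertical bars are medians. The median is 0.82 for the mitotic genes, 0.28 for other mitotic genes and 0.03 for the replication genes.

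Other cell cycle genes were examined for how far the change reached. Of 63 tested genes on a list of other mitotic genes, 7 were higher in KO (11.1%, beside 6.32% of all genes). On that list 0 were lower (beside 4.68% of all genes) and 56 did not pass, with a median log2 fold change of 0.28. Stmn1, a microtubule-destabilizing protein, rose from 26.7 to 33.7 CPM in WT to 42.8 to 49.3 CPM in KO (log2 0.63 ± 0.08 SE; edgeR adjusted p = 0.000867). Iqgap3, a scaffold of proliferating cells, and Knstrn, a spindle and kinetochore adaptor, rose by log2 2.07 ± 0.36 SE and 1.27 ± 0.23 SE (edgeR adjusted p = 0.00444 and 0.00558). The others called were Cdca2, Mastl, Kpna2 and Ckap2l. Those 4 each lost the call in at least 1 fit without a library: Cdca2 without WT replicate 3 or 4 (edgeR adjusted p up to 0.0594), Mastl without KO replicate 1 or 2 or WT replicate 2, 3 or 4 (up to 0.0814), and Kpna2 and Ckap2l without any 1 of KO replicates 1 to 3 or WT replicates 1 to 3 (up to 0.0857 and 0.109).

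Upstream of mitosis, 2 of 12 tested genes of G1 entry and the E2F family were higher (16.7%, beside 6.32% of all genes) and 1 was lower (8.33%, beside 4.68%). E2f1, the activator of S phase genes, was at 3.30, 3.54, 4.30 and 3.70 CPM in WT against 9.90, 9.41, 6.53 and 7.73 CPM in KO (log2 1.17 ± 0.16 SE; edgeR adjusted p = 0.00105). Its groups were well apart. Cdk4, the G1 kinase, rose by log2 0.32 ± 0.06 SE (edgeR adjusted p = 0.00727), and Ccnd3, one of its D-type cyclins, had a log2 fold change of -0.32 ± 0.08 SE (edgeR adjusted p = 0.0319), which was lost on leaving out KO replicate 2 or 3 or WT replicate 1, 3 or 4 (0.0576 to 0.093). Ccnd1, cyclin D1, named after its values were seen, was at 166, 221, 173 and 208 CPM in WT against 245, 196, 398 and 585 CPM in KO. KO replicate 2 lay inside the WT range and the gene did not pass (log2 0.89 ± 0.27 SE; edgeR adjusted p = 0.0608). Its log2 fold change was 1.36 in the kidneys with a leading E in the title (edgeR adjusted p = 0.0473) and 0.19 in the others. It also passed without KO replicate 2 (edgeR adjusted p = 0.0198), with no filter (0.0459) and with a term for the title form (0.0478). Of 39 DNA replication genes, 2 were higher (5.13%, near the 6.32% of all genes), 0 lower and 37 did not pass, with a median of 0.03. These were Uhrf1, which maintains DNA methylation (log2 1.05 ± 0.29 SE; edgeR adjusted p = 0.0397), and Chaf1b, a chromatin assembly factor (log2 0.83 ± 0.24 SE; edgeR adjusted p = 0.046). With 1 library left out, Uhrf1 passed only in the fits that omitted KO replicate 2 or 3 and Chaf1b only in the fit that omitted WT replicate 4 (edgeR adjusted p up to 0.109 and 0.111 in the others).

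Factors that repress or brake the cycle were also counted, where 6.32% of all genes were called higher and 4.68% lower. At those shares, 0 calls in a list as short as these carries little weight. Of 12 genes of the DREAM and MuvB complexes, 0 passed in either direction by edgeR, DESeq2 or limma-voom, 2 had an unadjusted p under 0.05 in edgeR (Tfdp1 and Rbl2), and the one with the smallest p was Tfdp1 (log2 0.21 ± 0.07 SE; edgeR adjusted p = 0.0839). Of 8 tested inhibitors and brakes of cyclin-dependent kinases, 2 were higher (25%, beside 6.32% of all genes). Cdkn2c, the p18 inhibitor of CDK4 and CDK6, rose by log2 0.54 ± 0.11 SE (edgeR adjusted p = 0.0115). Cdkn1a, the p53-induced inhibitor p21, was at 20.8, 17.6, 11 and 13 CPM in WT against 46.1, 52.8, 25.2 and 17.5 CPM in KO. KO replicate 4 lay inside the WT range (log2 1.20 ± 0.32 SE; edgeR adjusted p = 0.0374), and the call was lost on leaving out KO replicate 1 or 2 or WT replicate 2, 3 or 4 (0.0659 to 0.106). Of the anaphase-promoting complex core, 1 of 16 genes was higher (6.25%, near the share of all genes). That gene was Anapc5 (log2 0.24 ± 0.05 SE; edgeR adjusted p = 0.0181; 0.0573 without KO replicate 1). Of 2 tested Cdc25 phosphatases and 9 cohesin genes, 0 passed by edgeR, DESeq2 or limma-voom and 1 (Pds5a) had an unadjusted p under 0.05 in edgeR, with the smallest p at Cdc25b (log2 0.17; edgeR adjusted p = 0.442) and Pds5a (log2 0.20; edgeR adjusted p = 0.148).

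Some markers of kidney cell types differed with genotype, where 6.32% of all genes were called higher and 4.68% lower. Of 8 injured-tubule markers, 5 were higher (62.5%) and 0 lower. Their summed levels were 1000 to 1860 CPM in KO and 820 to 1180 CPM in WT, led by Spp1 and Clu. Clu did not pass, and the Spp1 call was lost when KO replicate 1 or 2 or any WT library was omitted (edgeR adjusted p from 0.0545 to 0.114). Spp1 also missed in DESeq2 (adjusted p = 0.0781), limma-voom (0.0566), upper quartile scaling (0.0565) and with a mean CPM filter (0.0509), while Havcr1, Sox9, Vcam1 and Krt20 passed in all 8 such fits. Havcr1 (KIM-1) was at 1.32, 1.33, 2.11 and 2.44 CPM in WT against 34.7, 39.6, 29.0 and 75.1 CPM in KO. Sox9, a factor of regenerating tubules, was at 0.406, 0.538, 0.576 and 0.886 CPM in WT against 14.2, 8.12, 16.2 and 7.98 CPM in KO. In the strains Havcr1 was at 62.8 CPM in 129S2_SvPasCrl and 4.07 CPM in DBA_2J, and Sox9 at 0.831 and 0.479 CPM. In both strains Sox9 lay within the WT range, while Havcr1 and Mki67 lay above it. Havcr1 was within the KO range in 129S2_SvPasCrl and below it in DBA_2J.

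Of 6 proximal tubule markers 2 were lower (Kap and Lrp2, 33.3%) and 4 did not pass. The sums were 25200 to 31300 CPM in KO and 34400 to 36100 CPM in WT. Kap makes up most of them (mean 18810 CPM in KO and 25070 CPM in WT). Slc34a1, the next by level, did not pass (mean 5561 CPM in KO and 5559 CPM in WT). Of 6 markers of other nephron segments 4 were lower (66.7%), with sums of 2810 to 4050 and 3640 to 4130 CPM. Of 8 macrophage markers 1 was higher (Cd14, 12.5%) and 1 lower (Csf1r, 12.5%). Their sums were 82.1 to 98 CPM in KO and 98.9 to 109 CPM in WT. Of 6 endothelial markers 1 was lower (Kdr, 16.7%), with sums of 108 to 173 and 164 to 190 CPM. As a share of so short a list, a single call says little. Of the tested markers of T and NK cells (5), B and plasma cells (5), neutrophils (1), erythroid precursors (4) and fibroblasts and pericytes (6), 0 passed by edgeR, DESeq2 or limma-voom. In edgeR 3 of them had an unadjusted p under 0.05 (Cd3e, Jchain and Lum), and the summed ranges of each of these lists overlapped between the genotypes. Omitting a library ended the calls of Lrp2 (all but KO replicate 4), Kap (KO replicates 1 and 2, WT replicates 1 to 3), Kdr (all but KO replicate 3), Slc12a1 (KO replicates 1 to 3, WT replicates 1 and 3), Slc12a3 (KO replicates 1 and 2, WT replicates 1, 3 and 4) and Aqp2 (KO replicates 1 and 2, WT replicate 1), with edgeR adjusted p of at most 0.107. Atp6v1g3, Cd14 and Csf1r passed in all 8 fits. Mpo, a neutrophil marker, was at 0 in all 8 libraries. The part of any of these cell types in the mitotic genes was not tested.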

How the data were processed

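Poly(A) RNA from 10 male mouse kidneys was sequenced as 100-nucleotide single-end reads on an Illumina sequencer, per the labels. The deposited values used are raw counts per gene over the mm10 annotation, made by the authors with featureCounts 1.5.2 on primary alignments, without strand and with reads in overlapping genes counted for each, per the file headers. STAR, featureCounts and edgeR, and the builds mm10 and GRCm38, are named in the submitters' processing notes. Of the normalized log2 table the authors deposited, with 13645 genes, only the gene names were used (41 of the 50 genes are in it).

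The main test was edgeR 4.0.16 (R 4.3.3; filterByExpr, TMM scaling, glmQLFit and glmQLFTest with genotype alone) on the 8 C57BL/6N libraries, with Benjamini-Hochberg adjustment over 15547 genes and a threshold of 0.05. Fold changes carry a standard error taken from the test statistic. Printed CPM use TMM over all 10 libraries, and log2 CPM a prior count of 2. The test was checked on simulated data. Groups came from the labels. Replicates were numbered by accession, and the numbers pair no animals. The labels do not say that animals are independent beyond their separate titles, so p-values measure the spread between these samples. Alternatives were other scalings, filters, thinned counts, a title form term, DESeq2 1.42.0, limma-voom (limma 3.58.1), and fits without each library. Promoter sequences came from RefSeq (GRCm38.p6).

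Values in every library are given, in each role, for up to 3 called genes with the smallest p and the tested gene with the largest p. Other cell cycle lists name up to 3 called genes, or the 1 with the smallest p. Marker lists name up to 2 genes by mean CPM plus Havcr1 and Sox9. For the strains, up to 3 genes per library and direction are named by size. Other names were added after their values were seen. The mitotic genes and lists were chosen with earlier results of these data known.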

Additional observations from a re-analysis of the deposited data

Results flagged for a closer look

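In 8 of the 102 gene-by-group sets examined, 1 library lay apart from the other 3 of its group by Dixon's 95% criterion, where chance gives about 1 in 20, or 5.1. In WT, Kif20b was at 36.4 CPM in replicate 4 (9.11 to 10.6 in the other 3), Mki67 at 1.70 CPM in replicate 3 (1.20 to 1.23), Ccnb2 at 1.17 CPM in replicate 2 (0.508 to 0.576), Bub1b at 1.27 CPM in replicate 2 (0.795 to 0.863), Plk1 at 1.36 CPM in replicate 2 (1.68 to 1.73) and Pbk at 0 CPM in replicate 1 (0.190 to 0.219). In KO, replicate 1 was apart for Aurkb at 1.32 CPM (0.779 to 0.858) and for Cdca8 at 2.39 CPM (1.5 to 1.62). Mki67, Ccnb2, Pbk and Aurkb kept their calls without each of these libraries.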

How the results depend on the processing

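With 1 library left out in turn, the mitotic genes called higher ranged from 11 to 19 and those called lower from 0 to 1, and all genes called higher from 610 to 916 and lower from 381 to 722. A mean CPM of 1 or more left 13 of 34 tested mitotic genes called higher (937 of 13738 over all genes). The kidneys with a leading E in the title alone gave 0 mitotic genes higher and 0 lower (92 and 51 over all genes). Those without it gave 10 higher and 1 lower (924 and 799 over all genes). In limma-voom 0 were called lower. A test of whether the genotype difference varied with title form called 0 of 15547 genes by edgeR (1004 at unadjusted p under 0.05, 1 of them mitotic, Kif20b).

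A prior count of 5 left 1 mitotic gene lower in DBA_2J. In the upstream bases alone TTTGAA was in 38.1% of the promoters, TTTGAA or TTCGAA in 40.5% (81.0% in the whole window), and either beside CCAAT in 35.7% (69%).

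Single-gene values under alternatives cover the 48 tested mitotic genes, the called genes of the other lists and Ehhadh. Of 1459 such values, 1194 kept direction and side of the threshold and 232 no longer passed. Only called genes could stop passing, so their share of losses is larger than the total implies. A further 13 newly passed, and 20 changed sign, all of uncalled genes. These log2 fold changes were -0.084 (Ccna2) and -0.028 (Ncapd2) in the E titles alone, and -0.082 (Nek2), 0.078 (Cenpa), -0.037 (Kif15), 0.435 (Kif20b) and -0.041 (Kif23) in the others. Thinned counts gave 0.069 (Cenpa) and -0.038 (Ncapd2), and upper quartile scaling -0.013 (Ncapd2). With 1 library left out, the ranges that crossed 0 were -0.043 to 0.144 for Ccna2, -0.199 to 0.003 for Cks2, -0.062 to 0.366 for Nek2, -0.176 to 0.113 for Cenpa, -0.602 to 0.338 for Kif20b, -0.061 to 0.218 for Kif23 and -0.042 to 0.06 for Ncapd2. The cause was not tested. No paired analysis was possible because replicates were numbered by accession and the labels pair no KO with a WT animal. Genes with a mean under 1 CPM rest on few reads.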
